A study of Mus musculus with 151 samples.

Results

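Blood vessels in ovaries of mice conceived naturally (Natural) or by in vitro fertilization (IVF) were followed through 10 endothelial and angiogenic genes. These were chosen by name, with earlier results of these data known: Pecam1, Cdh5, Emcn, Kdr, Flt1, Tek, Tie1, Vegfa, Angpt1 and Angpt2. All 10 were found among the 35976 gene names of each of 7 RNA-seq count tables. Natural ovaries came from CF-1 females mated with B6/SJL males, with development in vivo, and were collected at E18.5 (n = 4), 12 weeks (n = 4) and 39 weeks (n = 5). IVF ovaries came from the same cross after superovulation of CF-1 females, fertilization in vitro, culture to the blastocyst stage and transfer into pseudopregnant CF-1 recipients, and were collected at E18.5 (n = 6), 12 weeks (n = 5) and 39 weeks (n = 5). The effects of superovulation, fertilization, culture and transfer cannot be told apart in this design. Adults of both groups were delivered by cesarean section and fostered by CF-1 dams. Primordial germ cells (PGCs) at E13.5, single oocytes at 12 and 39 weeks and cumulus cells at 12 weeks, each from both groups, were read for the same 10 genes.

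Endothelial cells line blood vessels and are joined by adhesion proteins that hold the vessel wall closed. New vessels sprout towards VEGF-A, which binds the receptors KDR and FLT1, and mature vessels are kept quiet by angiopoietin 1 through the receptor TEK, with angiopoietin 2 acting as a context-dependent antagonist that is released when vessels remodel. In the adult ovary this system is used in every cycle, because growing follicles acquire a vascular sheath and the corpus luteum becomes among the most densely vascularized tissues of the body.

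Total counts per library ranged from 6995713 to 14830788 at E18.5, from 2839022 to 43363799 at 12 weeks and from 18079970 to 38751638 at 39 weeks. The lowest was IVF replicate 4 at 12 weeks. At 39 weeks IVF replicate 1 stood apart, with a summed level of 8950 CPM over 9 oviduct epithelium genes against 55.7 to 241 CPM in the other 9 ovaries. At 12 weeks the same sum was 3530 to 7790 CPM in Natural and 93.7 to 3100 CPM in IVF ovaries, so these markers moved with the groups as well, and their part in the results at 12 weeks was not tested. The labels give an age of both 39 weeks and 1 week more for Natural replicate 5 of the 39-week group. The study gives E18.5 as the day of collection for fetuses of both groups, but its methods also place cesarean section later in IVF than in Natural pregnancies, so whether the fetal ovaries differed in age is not settled here. Levels are counts scaled by library with TMM and given as CPM, log2 fold changes are IVF against Natural with positive values higher in IVF, and a gene was called changed at a Benjamini-Hochberg adjusted p below 0.05 over all genes tested with edgeR's quasi-likelihood test. In ovary RNA, fewer endothelial cells and less RNA per endothelial cell cannot be told apart. The paper speaks of whole ovaries. Its methods state that RNA came from only part of each snap-frozen ovary, or from the whole gonad at E18.5. Which part of the adult ovaries was taken is not given.

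The genes lie on 7 chromosomes of mm10 (GRCm38, GENCODE vM21), and all are protein coding. Pecam1 spans chr11:106654217-106750628 on the minus strand, Cdh5 chr8:104101625-104144511 on the plus strand, Emcn chr3:137341067-137432185 on the plus strand, Kdr chr5:75932827-75978458 and Flt1 chr5:147561604-147726011 on the minus strand, Tek chr4:94739289-94874976 on the plus strand and Tie1 chr4:118471191-118490061 on the minus strand. The ligands Vegfa at chr17:46016993-46032369, Angpt1 at chr15:42424723-42676977 and Angpt2 at chr8:18690263-18741562 are all on the minus strand. Exons of Angpt1 share 737 of 5205 bases with an antisense gene, Gm17473, and because strand in the counting is not given in the sources used here, reads of this pair cannot be told apart. No other member shared exon bases with another gene.

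Endothelial enhancers and promoters are classically bound by ETS transcription factors. RefSeq (GRCm38.p6) promoter windows of 250 bases before the start were matched for 6 of the 10 genes, Emcn, Kdr, Flt1, Tek, Tie1 and Vegfa, the last with 2 starts. The letters AGGAAG, which hold the core of an ETS site, or their reverse complement CTTCCT were found in 3 of these 7 windows, against 29.5% of all 32851 promoter windows of that length. The windows of Emcn and Flt1, the pair of endothelial genes with the lowest p at 39 weeks, are printed 5′ to 3′ on the gene's strand, with these letters in capitals. Emcn is chr3:137340828-137341077 on the plus strand, with matches that begin 174 and 93 bases before the start, and Flt1 is chr5:147726012-147726261 on the minus strand, with matches at 129 and 53 bases. The third window was that of Tie1, with a match 219 bases before the start, and the matches are a description of letters only.
Emcn: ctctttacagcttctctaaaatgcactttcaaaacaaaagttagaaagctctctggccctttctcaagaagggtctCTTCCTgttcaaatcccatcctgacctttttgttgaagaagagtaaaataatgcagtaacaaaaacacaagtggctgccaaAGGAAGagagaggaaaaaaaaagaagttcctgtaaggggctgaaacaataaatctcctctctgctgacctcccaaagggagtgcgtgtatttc
Flt1: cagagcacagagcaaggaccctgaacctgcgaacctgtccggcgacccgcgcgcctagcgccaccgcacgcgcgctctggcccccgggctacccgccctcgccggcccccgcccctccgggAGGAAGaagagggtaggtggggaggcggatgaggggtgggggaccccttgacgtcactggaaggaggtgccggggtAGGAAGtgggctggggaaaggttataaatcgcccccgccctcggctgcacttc

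Per kilobase of exon, Vegfa was the highest of the 10 genes in Natural ovaries at every age and Cdh5 was the next, and the lowest levels were shared by Angpt1, Flt1 and Emcn. In Natural E18.5 ovaries Vegfa was at 44.9 ± 14.6 CPM per kb (SD, n = 4) and Cdh5 at 35.6 ± 6.43, which did not differ beyond their spread, followed by Pecam1 at 18.7 ± 2.34, Tie1 at 14.4 ± 1.65 and Kdr at 13.7 ± 3.60, where the spread of Kdr overlapped with those of both Tie1 and Pecam1. Tek followed at 4.68 ± 0.762, and Angpt2 (2.19 ± 0.840), Emcn (2.18 ± 0.251), Flt1 (1.84 ± 0.431) and Angpt1 (1.35 ± 0.405) were within each other's spread, except that Emcn lay above Angpt1 by more than their SDs. At 39 weeks Vegfa (31.8 ± 11.9, n = 5) and Cdh5 (29.2 ± 3.13) overlapped again, and Tie1 (14.1 ± 2.86), Pecam1 (12.2 ± 2.16) and Kdr (11.4 ± 2.71) formed the next group. At 12 weeks Vegfa stood alone at 47.3 ± 3.05 CPM per kb (n = 4), with Cdh5 at 19.8 ± 1.33. The ages were normalized separately, so levels are compared between genes within an age only.

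**Figure D1:**
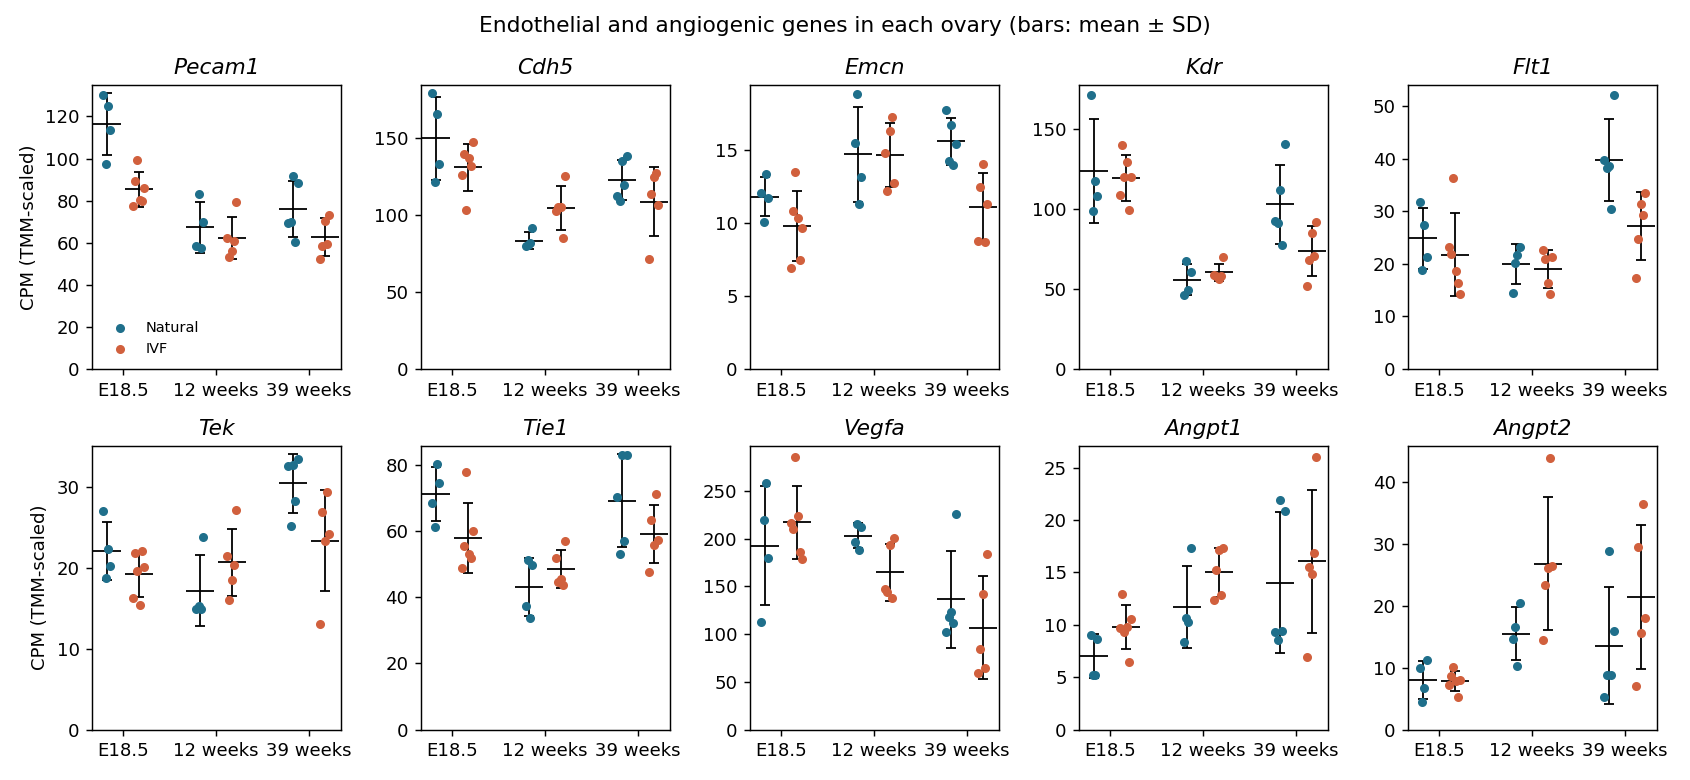
CPM (y axis, from 0) of each of the 10 genes in each ovary by age (x axis, E18.5 and 12 and 39 weeks), with Natural and IVF ovaries as points in separate colours and bars for mean ± SD. For Pecam1 at E18.5, 5 of 6 IVF ovaries lie below the lowest Natural ovary, and in no panel are the groups of an age fully apart.

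At E18.5, 1 of the 10 genes was called, Pecam1, which fell, and 8 of the 10 had a log2 fold change below 0. The median over the 10 was -0.19, beside 0.000215 over all 16415 genes tested, of which 5.43% were called in either direction. DESeq2 called 1 of the 10 as well, also Pecam1, beside 11.7% of all genes. At 12 weeks edgeR called 0 of 10 genes, beside 0.00567% of 17628, and DESeq2 called 0, beside 3.52%. An unadjusted p below 0.05 was found for 3 of the 10 genes and for 14.4% of all genes. The median log2 fold change there was 0.15, with 6 genes above and 4 below 0, beside 0.0089 over all genes. At 39 weeks edgeR called 0 of 10, beside 0.262% of 17186 genes, and DESeq2 called 1, Emcn, beside 7.28%. The unadjusted p was below 0.05 for 3 of the 10 genes and for 19.2% of all genes. The median log2 fold change was -0.31, with 8 of 10 below 0, beside 0.027 over all genes. Groups without any overlap were not seen for any of the 10 genes at any age, whereas every IVF value lay above every Natural value for 4.28% of genes in fetal ovaries, 2.46% in 12-week and 2.27% in 39-week ovaries, and below for 4.33%, 3.64% and 2.85%.

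**Figure D2:**
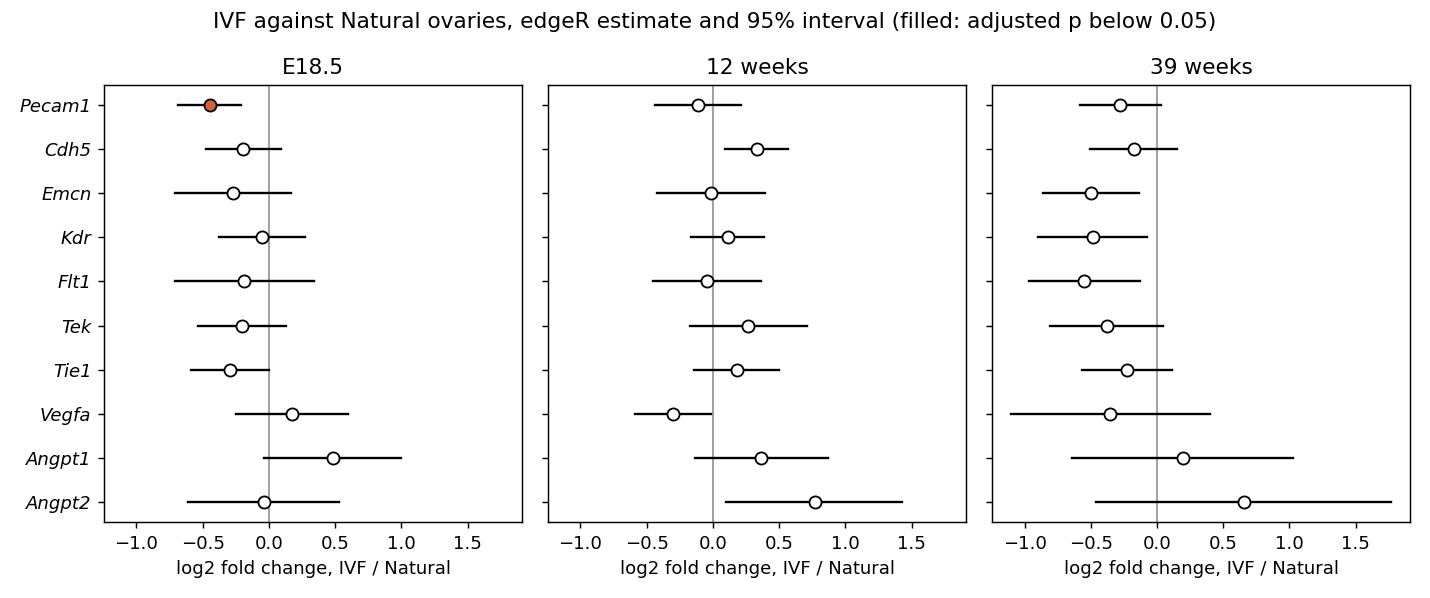
edgeR log2 fold change of IVF against Natural (x axis) for each gene (y axis) in E18.5, 12-week and 39-week ovaries, as points with 95% intervals, filled where the adjusted p was below 0.05. Pecam1 at E18.5 is the only filled point, and the 7 endothelial genes from Pecam1 to Tie1 all lie left of 0 at E18.5 and at 39 weeks.

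Pecam1 encodes CD31, an adhesion protein of endothelial junctions whose staining is widely used to count vessels. In E18.5 ovaries it was at 130, 97.2, 125 and 114 CPM in the 4 Natural and at 77.4, 89.5, 99.5, 80.1, 79.9 and 85.8 CPM in the 6 IVF ovaries, with means of 116 ± 14.6 and 85.4 ± 8.22 (SD). Natural replicate 2 and IVF replicate 3 were the only ovaries in the range that the groups shared. The log2 fold change was -0.45 (SE 0.11, 95% interval -0.68 to -0.21), or 0.733 of the Natural level, with an edgeR adjusted p of 0.0333. The sign was kept without any single ovary, with log2 fold changes between -0.53 and -0.39. The call was lost without Natural replicate 3 (adjusted p = 0.0774) or 4 (0.0662), or without IVF replicate 1 (0.0732), 2 (0.0613), 4 (0.0739), 5 (0.0685) or 6 (0.066), in each case in edgeR with fewer ovaries in the fit. PECAM1 is also a surface protein of fetal germ cells, and the summed level of 7 primordial germ cell genes was 602, 612, 255 and 804 CPM in Natural and 218 to 605 CPM in IVF E18.5 ovaries. That of 9 germ cell and oocyte genes was 378, 514, 191 and 699 CPM in Natural and 166 to 445 CPM in IVF. The part of germ cells in the Pecam1 result was not tested.

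In adult ovaries Pecam1 was not called. At 12 weeks it was at 58.3, 83.2, 57.6 and 70.0 CPM in Natural and at 62.0, 53.4, 55.9, 60.9 and 79.2 CPM in IVF ovaries, and the groups overlapped along most of their range. The log2 fold change was -0.11 (SE 0.15, 95% interval -0.44 to 0.22, adjusted p = 0.757). At 39 weeks it was at 69.6, 69.8, 91.7, 60.4 and 88.4 CPM in Natural and at 52.1, 58.2, 70.4, 59.4 and 73.3 CPM in IVF, with 3 of 5 IVF ovaries below every Natural ovary. The log2 fold change was -0.28 (SE 0.14, 95% interval -0.58 to 0.03), which was not called (adjusted p = 0.297).

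Cdh5, the VE-cadherin gene of endothelial adherens junctions, had a positive log2 fold change at 12 weeks. It was at 79.5, 80.5, 81.7 and 91.6 CPM in Natural and at 102, 105, 105, 85.2 and 125 CPM in IVF ovaries, so that 4 of 5 IVF ovaries exceeded all Natural ovaries and only IVF replicate 4, the shallowest library, did not. The log2 fold change of 0.33 (SE 0.11, 95% interval 0.09 to 0.57) was not called (p = 0.011, edgeR adjusted p = 0.223). At E18.5 Cdh5 had a log2 fold change of -0.19 (SE 0.13, adjusted p = 0.386) and at 39 weeks of -0.18 (SE 0.15, adjusted p = 0.531). Within single ovaries, the ratio of Pecam1 to Cdh5 counts was 0.727 to 0.853 in Natural and 0.581 to 0.964 in IVF at E18.5, with 5 of 6 IVF ovaries below all Natural ovaries and IVF replicate 3 above them. At 12 weeks it was 0.705 to 1.03 in Natural and 0.507 to 0.714 in IVF, with 4 of 5 IVF ovaries below all Natural ovaries, and at 39 weeks the ranges of 0.506 to 0.681 and 0.468 to 0.727 overlapped. Such a ratio does not depend on library scaling, and it is given without a test.

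Emcn encodes endomucin, a sialomucin of capillary and venous endothelium. Its largest difference was at 39 weeks, where it was at 17.7, 14.3, 16.7, 13.9 and 15.4 CPM in Natural and at 8.77, 12.5, 14.1, 8.71 and 11.3 CPM in IVF ovaries. IVF replicate 3 was the only IVF ovary that reached the Natural range. The log2 fold change was -0.50 (SE 0.16, 95% interval -0.86 to -0.13), with p = 0.012 and an adjusted p of 0.162 in edgeR, and DESeq2 called it (adjusted p = 0.0438). Emcn was at 11.8 ± 1.36 CPM in Natural and 9.78 ± 2.40 in IVF E18.5 ovaries (log2 fold change -0.27, SE 0.20, adjusted p = 0.447), and at 14.7 ± 3.25 and 14.6 ± 2.18 CPM at 12 weeks (-0.01, SE 0.18, adjusted p = 0.985).

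The VEGF receptors also had their largest log2 fold changes at 39 weeks. Kdr, the main signalling receptor for VEGF-A, was at 92.8, 91.5, 112, 77.2 and 141 CPM in Natural and at 52.1, 67.9, 85.3, 70.8 and 91.7 CPM in IVF 39-week ovaries, and 3 of 5 IVF ovaries lay below all Natural ones. Its log2 fold change was -0.48 (SE 0.19, 95% interval -0.90 to -0.07, p = 0.0255, adjusted p = 0.21). Flt1, which binds VEGF-A tightly with little signalling and has a soluble decoy form, was at 39.7, 38.3, 38.6, 30.4 and 52.2 CPM in Natural and at 17.3, 24.7, 31.4, 29.4 and 33.5 CPM in IVF. Its log2 fold change of -0.55 (SE 0.19, 95% interval -0.97 to -0.13) was the lowest of the 10 genes at that age and was not called (p = 0.0152, adjusted p = 0.175). Counts per gene do not separate the soluble from the membrane form. Without IVF replicate 1, the ovary with oviduct genes, the differences at 39 weeks were -0.425 for Flt1, -0.424 for Emcn and -0.383 for Kdr, and without Natural replicate 5 they were -0.433, -0.501 and -0.344. At E18.5 and 12 weeks the log2 fold changes were -0.05 (SE 0.15) and 0.11 (SE 0.12) for Kdr and of -0.18 (SE 0.24) and -0.05 (SE 0.18) for Flt1, with adjusted p between 0.68 and 0.937.

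Neither TIE receptor was called at any age. Tie1, an orphan receptor that modulates TEK, was at 71.0 ± 8.13 CPM in Natural and 57.8 ± 10.5 in IVF E18.5 ovaries (log2 fold change -0.30, SE 0.14, p = 0.0503, adjusted p = 0.208). In 5 of 6 IVF ovaries Tie1 was below all Natural ovaries, and without the sixth, IVF replicate 3, it was called in edgeR (log2 fold change -0.40, adjusted p = 0.042). At 12 weeks its log2 fold change was 0.18 (SE 0.14, adjusted p = 0.588) and at 39 weeks -0.23 (SE 0.15, adjusted p = 0.424). Tek, the angiopoietin receptor, had log2 fold changes of -0.20 (SE 0.15, adjusted p = 0.451) at E18.5, 0.27 (SE 0.20, adjusted p = 0.549) at 12 weeks and -0.38 (SE 0.19, adjusted p = 0.303) at 39 weeks. At 39 weeks Tek was at 25.1 to 33.4 CPM in Natural and 13.0 to 29.3 CPM in IVF ovaries, and the lowest value was again that of IVF replicate 1.

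None of the ligands was called at any age. Vegfa at 12 weeks was at 197, 215, 188 and 212 CPM in Natural and at 148, 144, 193, 138 and 200 CPM in IVF ovaries, with 3 of 5 IVF ovaries below all Natural ones and the other two within their range. The log2 fold change was -0.30 (SE 0.13, 95% interval -0.59 to -0.01, p = 0.0427, edgeR adjusted p = 0.329). At E18.5 it was 0.17 (SE 0.20, adjusted p = 0.627), and at 39 weeks -0.35 (SE 0.34, adjusted p = 0.587), where Vegfa spread from 102 to 226 CPM within Natural and from 59.2 to 184 CPM within IVF ovaries.

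Angpt2 had the largest log2 fold change of the 10 genes at 12 weeks, 0.77 (SE 0.30, 95% interval 0.10 to 1.43), or 1.70 times the Natural level, and it was not called (p = 0.0281, adjusted p = 0.29). It was at 14.7, 16.6, 10.2 and 20.6 CPM in Natural and at 14.5, 23.4, 26.1, 44.0 and 26.5 CPM in IVF ovaries. Of the 5 IVF ovaries, 4 lay above all Natural ones, and the highest was the shallow IVF replicate 4. At 39 weeks Angpt2 again had a positive log2 fold change, 0.66 (SE 0.51, adjusted p = 0.488), with values from 5.35 to 29.0 CPM in Natural and 7.08 to 36.6 CPM in IVF, and at E18.5 it was -0.04 (SE 0.27, adjusted p = 0.949). Angpt1, the TEK agonist made by mural and stromal cells, had positive log2 fold changes at all 3 ages, 0.48 (SE 0.24, adjusted p = 0.242), 0.37 (SE 0.22, adjusted p = 0.47) and 0.20 (SE 0.38, adjusted p = 0.801). At E18.5, 5 of 6 IVF ovaries were above all Natural ovaries for Angpt1. The ratio of Angpt2 to Angpt1 counts in an ovary had medians of 1.20 in Natural and 0.781 in IVF at E18.5, with 5 of 6 IVF ovaries below all Natural ones. At 12 weeks the medians were 1.37 and 1.53, and at 39 weeks 0.945 and 1.06, with overlapping ranges at both adult ages.

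The effect of IVF was compared between ages in a joint edgeR model of all 29 ovaries, over 19724 genes. It called 0 of the 10 genes as different between 12 weeks and E18.5 (0.314% of all genes called), between 39 weeks and E18.5 (7.95%) or between 39 and 12 weeks (2.71%), and DESeq2 called 0 as well. At an unadjusted p below 0.05, which 14% of all genes had, the IVF effect on Cdh5 was higher at 12 weeks than at E18.5 by a log2 difference of 0.56 (SE 0.21, adjusted p = 0.228) and that on Tie1 by 0.50 (SE 0.22, adjusted p = 0.306). From 12 to 39 weeks, where 20% of all genes had such a p, it was lower for Cdh5 (-0.50, SE 0.21, adjusted p = 0.16), Kdr (-0.59, SE 0.25, adjusted p = 0.176) and Tek (-0.64, SE 0.28, adjusted p = 0.18). Averaged over the 3 ages, 0 of the 10 genes were called, beside 0.989% of all genes. Pecam1 came closest, at -0.30 (SE 0.08, 95% interval -0.46 to -0.13, p = 0.000938, adjusted p = 0.0696), and DESeq2 called it in this average (adjusted p = 0.0282). With single ovaries left out, edgeR called it in 3 of 29 fits. These were without IVF replicate 5 of 12 weeks (adjusted p = 0.037), Natural replicate 4 of 39 weeks (0.0473) or IVF replicate 1 of 39 weeks (0.0427). Among all alternatives its highest edgeR adjusted p was 0.166. In the main fit Emcn (-0.28, SE 0.11, adjusted p = 0.2) and Flt1 (-0.28, SE 0.13, adjusted p = 0.313) followed Pecam1.

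Within an age and group, the 7 endothelial genes were positively correlated from ovary to ovary, to unequal degrees. Over the 29 ovaries, with each value taken as the deviation from the mean of its age and group, the 21 pairs had Pearson r between 0.112 and 0.855, with a median of 0.572. The correlation usual between other genes was not worked out. Each gene's r with the mean of the other endothelial genes was highest for Pecam1 (r = 0.849, Spearman rho = 0.858) and Kdr (r = 0.837, rho = 0.863) and lowest for Emcn (r = 0.425, rho = 0.332). Between these lay Tie1 (r = 0.742), Tek (0.699), Flt1 (0.66) and Cdh5 (0.602). Of the ligands, Angpt1 had r = 0.735 (rho = 0.669) with the mean of the 7, Angpt2 r = 0.589 (rho = 0.559) and Vegfa r = 0.427 (rho = 0.404). The r of Angpt1 was thus above those of Tek, Flt1, Cdh5 and Emcn. The 10 genes, other than the members, that were most like this mean included Clec14a (r = 0.815, rho = 0.808), a C-type lectin of endothelium that is also in the list of 24 vessel genes described next, Ppm1b (0.813), Afap1l1 (0.808), Kctd7 (0.803), She (0.799), Pcdh12 (0.792), an endothelial protocadherin, Tacc1 (0.791), Pip5k1a (0.79) and Rnf146 (0.783). Of the genes named as most like the mean, only Clec14a is in any of the gene lists. These correlations describe the 29 ovaries, for which the paper names the same library kit and which differ in depth. No p is given for them. Whether the libraries were prepared together is not given in the sources used here.

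Other vascular genes were read as lists. At E18.5, 23 of the 24 other blood vessel endothelium genes had a log2 fold change below 0, with a median of -0.36, and 6 were called, all lower. The 4 with the lowest p were Icam2, an adhesion ligand (18.6 ± 0.976 CPM in Natural and 10.3 ± 1.64 in IVF, log2 fold change -0.86, SE 0.16, adjusted p = 0.0138), Esam, a junction protein (-0.51, adjusted p = 0.0233), Ramp2, the adrenomedullin co-receptor subunit (-0.57, adjusted p = 0.0256) and Cldn5, the tight junction claudin (-0.83, adjusted p = 0.0333). The summed level of the 24 genes was 1460, 1110, 1400 and 1300 CPM in Natural and 985 to 1170 CPM in IVF ovaries, so that only Natural replicate 2 and IVF replicate 3 lay in the shared range, as for Pecam1. The count of 6 fell to 1 without Natural replicate 4 or IVF replicate 4, to 2 without Natural replicate 2 or IVF replicate 1, 2 or 5, and to 3 without IVF replicate 6, and was 7 without Natural replicate 1.

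Genes of the vessel wall were called at E18.5 too. Of 12 pericyte and smooth muscle genes 10 were below 0 and 5 were called lower. The 4 with the lowest p were Acta2, smooth muscle actin (315 ± 60.8 CPM in Natural and 148 ± 34.9 in IVF, log2 fold change -1.10, SE 0.17, adjusted p = 0.0129), Cnn1, calponin (-1.65, adjusted p = 0.0138), Rgs5, a pericyte signalling regulator (-0.97, adjusted p = 0.021), and Myh11, smooth muscle myosin (-0.87, adjusted p = 0.0223). Pdgfrb (-0.13) and Des (-0.12) of the same list were near 0 and not called. The 2 genes above 0 were Cspg4 (0.14) and Notch3 (0.16), also not called. The count of 5 calls was 3 without Natural replicate 4 or IVF replicate 2 or 4. Acta2, Cnn1 and Myh11 are also expressed in other smooth muscle. Of 4 lymphatic endothelium genes tested 1 was called lower, Pdpn (-0.71, adjusted p = 0.0227), which is also made by mesothelial and stromal cells. Of 10 angiogenic sprouting and Notch genes 1 was called lower, Hey2, a Notch target (-1.06, adjusted p = 0.0434), and of 12 hypoxia response genes 2 were called lower, Bnip3 (-0.83, adjusted p = 0.0129) and Epas1, the HIF-2 alpha gene (-1.32, adjusted p = 0.0295). Of 8 angiogenesis inhibitors tested 1 was called higher, Thbs2, thrombospondin 2 (0.52, adjusted p = 0.0379), and of 7 VEGF family and co-receptor genes edgeR called 0, with Vegfc lowest in p (-0.65, p = 0.0173, adjusted p = 0.121). All of these lists were chosen with earlier results of these data known, so their counts stand beside the 5.43% of all genes as a description.

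Red blood cell genes were higher in IVF at E18.5. All 7 erythroid genes had a positive log2 fold change, with a median of 1.87, and 3 were called higher, Alas2 (1.87, SE 0.33, adjusted p = 0.0129), Hbb-bs (1.38, SE 0.30, adjusted p = 0.0233) and Slc4a1 (2.10, SE 0.55, adjusted p = 0.0423). Their sum was 604 to 1600 CPM in Natural and 1620 to 4640 CPM in IVF ovaries, without overlap, and the count of 3 was 1 without Natural replicate 2. The 3 platelet genes tested were all below 0 with none called, and 5 of 7 macrophage genes were below 0 with none called. Of 9 germ cell and oocyte genes 3 were called lower, Gdf9 (-2.14), Ooep (-2.66) and Zp3 (-3.14), as was Pou5f1 (-2.32) of the primordial germ cell list, and 2 of 8 luteal and steroidogenic genes were called higher, Lhcgr (2.33) and Star (0.72). No gene was called among 5 granulosa and 6 cumulus genes tested at E18.5. Of 9 oviduct epithelium genes 7 were below 0, with a median of -0.54 and none called, and the lowest p were those of the keratins Krt7 (-0.54, p = 0.00545, adjusted p = 0.069) and Krt18 (-0.65, p = 0.00682, adjusted p = 0.0776). Their sum was 349 to 1020 CPM in Natural and 326 to 597 CPM in IVF ovaries, and in both groups replicate 3 was the highest, as it was for the sum of the pericyte and smooth muscle genes (1640 CPM in Natural and 1200 CPM in IVF). The part of blood content, germ cells, oviduct and fetal age in the vascular differences at E18.5 was not tested.

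**Figure D3:**
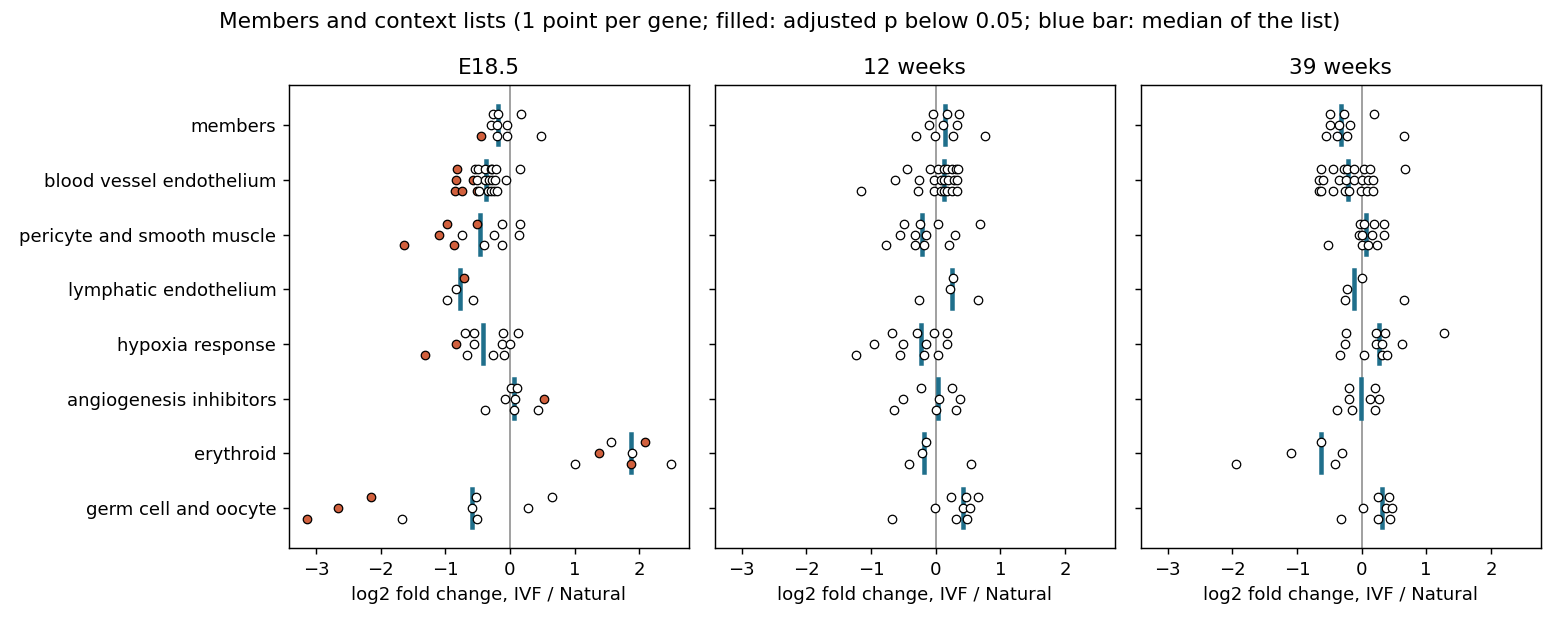
log2 fold change of IVF against Natural (x axis) for each gene of the 10 members and of 7 other lists (y axis) in E18.5, 12-week and 39-week ovaries, filled where the adjusted p was below 0.05, with a bar at the median of the list. At E18.5 the medians of the blood vessel (-0.36) and pericyte (-0.46) lists lie left of 0 and that of the erythroid list (1.87) right of it, at 12 weeks no point is filled, and at 39 weeks the members have a median of -0.31 and the blood vessel list of -0.21 with no point filled.

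In adult ovaries edgeR called none of the genes of these 16 lists. At 12 weeks 16 of the 24 blood vessel endothelium genes were above 0, with a median of 0.13, and the lowest p values were those of Sox17, an arterial transcription factor (-1.16, p = 0.0168, adjusted p = 0.25), and Eng, a TGF-beta co-receptor (0.31, p = 0.0329, adjusted p = 0.306). In the Notch list the lowest p was that of Hey1 (-0.86, p = 0.00076, adjusted p = 0.152). At 39 weeks 17 of 24 blood vessel genes were below 0, with a median of -0.21, led by Eng (231 ± 29.2 CPM in Natural and 150 ± 17.8 in IVF, log2 fold change -0.62, SE 0.12, adjusted p = 0.0544) and Egfl7, a protein secreted by endothelium (-0.66, adjusted p = 0.0989). The summed level of the 24 genes at 39 weeks was 1330, 1160, 1330, 1200 and 1390 CPM in Natural and 874, 1080, 1090, 1130 and 1080 CPM in IVF ovaries, which did not overlap. Eng, the most abundant of the 24, weighs most in this sum, and 7 of the 24 genes were above 0. At 12 weeks this sum was 853 to 1070 CPM in Natural and 893 to 1120 CPM in IVF. Without IVF replicate 1 of 39 weeks edgeR called 1 of the 24 lower, and calls over all genes were 123 there against 45 with it. In the same 39-week ovaries the sum of 8 luteal and steroidogenic genes was 22400 to 37700 CPM in Natural and 12200 to 28100 CPM in IVF, 7 of the 8 genes were below 0 with a median of -0.70, and all 7 granulosa genes were above 0 with a median of 0.96, with none called in either list. The part of luteal tissue in the endothelial differences at 39 weeks was not tested. The 7 other genes of the VEGF family and its co-receptors summed to 453 to 503 CPM in Natural and 333 to 437 CPM in IVF ovaries at 39 weeks, also without overlap. The lowest edgeR p was that of Nrp2, a VEGF co-receptor (-0.49, p = 0.0167, adjusted p = 0.182). Nrp2 (176 ± 32.4 CPM in Natural and 126 ± 27.1 in IVF) and Nrp1 (175 ± 11.1 and 152 ± 24.7) weigh most in this sum. Of the 7 genes 2 were above 0. How often sums of other gene lists lack overlap was not worked out. Pericyte and smooth muscle genes at 39 weeks had a median of 0.07, with Pdgfrb lowest in p (-0.52, adjusted p = 0.0888). DESeq2 called 6 of the 24 blood vessel genes lower at that age, beside 7.28% of all genes in either direction.

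The 10 genes were also read in isolated cells. In PGC libraries Pecam1 was at 280, 71.7, 178 and 190 CPM in Natural and at 453, 119, 155, 213 and 291 CPM in IVF PGCs, whereas Cdh5 did not exceed 0.714 CPM and Emcn 0.343 CPM in any of the 9 libraries. Per kilobase of exon the PGC mean of 28.9 ± 13.7 in Natural and 39.5 ± 21.3 in IVF stood beside 18.7 ± 2.34 and 13.7 ± 1.32 in whole E18.5 ovaries, in tables that were normalized separately and came from different library kits. The 24 other blood vessel genes together summed to 43.4 to 79.1 CPM in the 9 PGC libraries, against 985 to 1460 CPM in E18.5 ovaries, and the 7 primordial germ cell genes to 3360 to 8850 CPM. Of the 10 genes 5 passed the expression filter in PGCs, and edgeR called 0 of them, with 0 at an unadjusted p below 0.05 (2.73% of all genes), 0 in DESeq2 and 0% of 12763 genes called. Pecam1 had a log2 fold change of 0.45 (SE 0.43, adjusted p = 1) and Vegfa of -1.21 (SE 0.71, adjusted p = 1), the latter at 0.93 ± 0.67 CPM in IVF and 2.18 ± 0.702 in Natural PGCs.

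Oocytes collected after superovulation held reads of Pecam1 and, at lower levels, of the receptors Flt1, Kdr and Tek. Pecam1 had a count in 76 of 76 single 12-week oocytes, Kdr and Flt1 in 75 each and Tek in 73, but Cdh5 in 12, Vegfa in 13 and Emcn in 4. Summed within 5 sets of oocytes per group, read from the library names and taken to have been collected together (the names of each group's sets have 2 stems, so sets may share a litter or batch and the p-values may then be too small), Pecam1 was at 37.9 ± 6.69 CPM in Natural and 42.6 ± 13.6 in IVF, Flt1 at 18.7 ± 5.43 and 18.0 ± 3.06, Kdr at 7.05 ± 2.60 and 8.26 ± 2.14, and Tek at 3.63 ± 1.44 and 5.65 ± 4.12. Cdh5 was at 0.163 ± 0.0782 and 0.0337 ± 0.0333 CPM, which rests on 31 and 6 counts in all. All 5 IVF sets lay below all 5 Natural sets, but Cdh5 did not pass the filter and was not tested. How many genes near 0 separate in this way was not worked out for oocytes, so the separation is not read as a difference. Of the 10 genes 7 passed the filter and edgeR called 0, beside 0.0277% of 14444 genes, with 0 at an unadjusted p below 0.05 and 0 in DESeq2. The log2 fold changes were 0.17 (SE 0.22) for Pecam1, -0.05 (SE 0.21) for Flt1, 0.23 (SE 0.27) for Kdr and 0.64 (SE 0.43) for Tek. The sum of 7 erythroid genes was 19.5 to 73.9 CPM in Natural and 7.32 to 357 CPM in IVF sets. The part of blood RNA in these reads was not tested.

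At 39 weeks no donor is named for the 9 Natural and 10 IVF oocytes, so each group counted as 1 sample and no test was made. Pecam1 was at 30.0 CPM of the summed counts in Natural (exact Poisson 95% interval 28.9 to 31.0, counting error only, and too narrow if both reads of a pair were counted) and at 59.1 CPM in IVF (58.0 to 60.3), and 41.6% of the IVF counts came from a single oocyte. Kdr was at 7.43 (6.93 to 7.96) and 7.21 CPM (6.82 to 7.62), and Flt1 at 8.54 (8.00 to 9.11) and 11.5 CPM (11.0 to 12.0). Tek was at 9.56 CPM (8.99 to 10.2) in Natural and 1.11 CPM (0.962 to 1.28) in IVF oocytes, with 70.2% of the Natural counts from a single oocyte. Vegfa had 2 counts in Natural and 1 in IVF oocytes in all, which was near the limit of detection. These libraries also held blood RNA, with a sum of 7 erythroid genes of 116 to 22100 CPM in Natural and 3.05 to 31400 CPM in IVF oocytes. Its part in the reads of the 10 genes was not tested.

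Cumulus cells, the granulosa cells that surround the oocyte, held few reads of the endothelial genes apart from Cdh5. Cdh5 was at 8.78 ± 4.55 CPM in Natural and 6.56 ± 6.45 in IVF (n = 5 each), with Pecam1 at 1.58 ± 0.566 and 1.93 ± 1.70, while Emcn and Tek had no count in any of the 10 libraries. Kdr had no count in the 5 Natural libraries and 14 counts in all in IVF, at least 1 in each of the 5, and was not tested. The share of genes that separate in this way was not worked out for cumulus cells, so these counts are not read as a difference. Vegfa, which granulosa cells make around ovulation, was at 8.46 ± 3.16 and 11.3 ± 5.95 CPM. Only Cdh5 (log2 fold change -0.75, SE 0.49, adjusted p = 0.875) and Vegfa (0.37, SE 0.36, adjusted p = 0.926) passed the filter, and edgeR called 0 of the 2, beside 0.00973% of 10280 genes, with 0 at an unadjusted p below 0.05 and 0 in DESeq2. The 24 other blood vessel genes summed to 62.7 to 241 CPM in these libraries. The 7 erythroid genes summed to 20.4 to 407 CPM in Natural and 35.3 to 1010 CPM in IVF. Macrophage genes summed to 17.7 to 157 CPM in Natural and 17.2 to 113 CPM in IVF. The part of blood and other cells in the reads of Cdh5 was not tested.

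**Figure D4:**
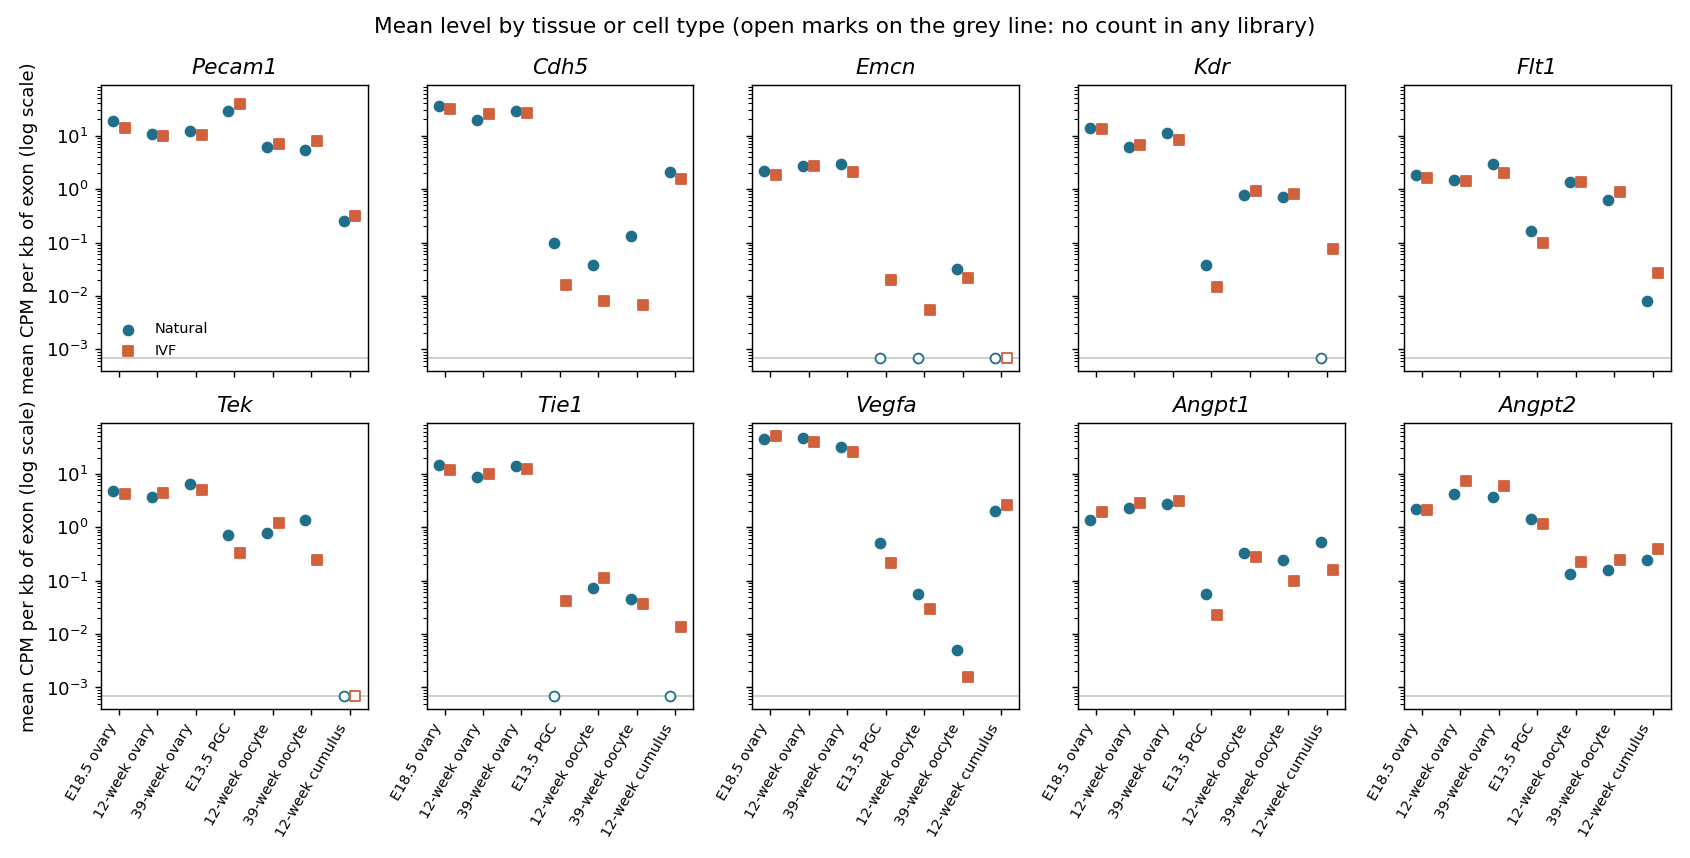
Mean CPM per kilobase of exon (y axis, log scale) of each gene in ovaries at 3 ages, PGCs, oocytes at 2 ages and cumulus cells (x axis), with Natural as circles and IVF as squares, and open marks on the grey line where no library had a count. The mean of Pecam1 in PGCs, at 28.9 in Natural and 39.5 in IVF, lies above its means in ovaries, in tables normalized separately. Single Natural PGC libraries ranged from 11.5 to 45, across the range of 15.6 to 20.9 in Natural E18.5 ovaries. IVF PGC libraries ranged from 19 to 72.8, above the 12.4 to 16 of IVF E18.5 ovaries. Cdh5, Emcn, Kdr and Tie1 are far lower in PGCs than in ovaries.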

How the data were processed

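RNA-seq of ovaries, primordial germ cells, single oocytes and cumulus cells was deposited as 7 tables of raw read counts per gene. The authors made these from mRNA libraries (KAPA kit) for ovaries and from a modified SMART-Seq protocol for the cells. The submitters' processing notes name STAR 2.3.0e, Trimmomatic 0.32, featureCounts 1.5.0, DESeq2 and mm10, with no role or order. How multi-mapped reads and strand were counted is not given in the sources used here. Each ovary table holds 27 gene names that read as numbers, and these rows stayed in the fits without being named.

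Each table was tested alone with edgeR 4.0.16 in R 4.3.3 (TMM scaling, filterByExpr, quasi-likelihood test, two-sided), with Benjamini-Hochberg adjustment over all genes tested and a threshold of 0.05. The cumulus fit had the style of library name as a term. Single 12-week oocytes were summed by 5 sets per group, read from their library names and taken to have been collected together. A joint model of 29 ovaries with a mean for each of 6 combinations of age and group compared the IVF effect between ages. DESeq2 1.42.0, RLE scaling, no expression filter, leaving out each library and the replicate number as a block were alternatives, and 1 alternative, leaving out 12-week IVF replicate 4 and 39-week IVF replicate 1 together, was added after the data were seen. The block fits kept only replicate numbers found in both groups, so some IVF libraries were left out of them. log2 CPM used a prior count of 2. On simulated counts with 200 genes changed by 2 on the log2 scale, edgeR recovered 87.5%, 80% and 77.5% of them at E18.5, 12 and 39 weeks, with 5.41%, 4.76% and 4.32% of calls false, and DESeq2 had 18.7%, 23.5% and 22.3% of calls false. No member differed by more than 0.77 in ovaries, so these shares do not give the recovery of differences of that size. The counts were drawn with dispersions that edgeR had estimated, so they do not rank the tools. Of the nonzero counts 56.5% to 58.1% were even in the ovary tables and 69% to 73.2% in the oocyte tables. Intervals on oocyte sums cover counting error only and may be too narrow if both reads of a pair were counted, which was not tested. Same-numbered replicates were not paired: their deviations correlated from -0.132 to 0.0104 in fetal, from -0.357 to 0.252 in 12-week and from -0.00621 to 0.399 in 39-week ovaries.

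All 10 members are named in each comparison. From each of 16 gene lists the text names at most 4 called genes with the lowest p or, where none was called, at most 2, and the 10 genes most like the mean of the 7 endothelial genes, except 1 that is not reported here. The members and lists were chosen with earlier results of these data known. Animals came from different litters, with at most 2 adult littermates per litter, and litter was not a term in the fits. The p-values measure the spread between these animals and may be too small where littermates share a group. Records of cumulus cells at 39 weeks were not analysed here. A cumulus library that the labels place in Natural shares its name stem with oocytes labelled IVF, and was kept as labelled.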

Additional observations from a re-analysis of the deposited data

Results flagged for a closer look

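The groups examined held 4 to 6 libraries or, for 12-week oocytes, sets. In 5 of 88 groups the highest or lowest value stood apart from the others by Dixon's 95% criterion, which chance alone meets in about 1 in 20 groups. Kdr in 12-week IVF replicate 5 was at 70.0 CPM, against 58.7 CPM in the next library. Tek in 12-week Natural replicate 4 was at 23.8 CPM, against 15.2 CPM. Tek in 39-week IVF replicate 1, the ovary with oviduct epithelium genes, was at 13.0 CPM, against 23.3 CPM. Vegfa in 39-week Natural replicate 5, the ovary labelled with both ages, was at 226 CPM, against 123 CPM. Flt1 in PGC Natural replicate 2 was at 5.61 CPM, against 1.23 CPM.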

How the results depend on the processing

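Of the 10 genes, the number called at E18.5 was 1, and ranged from 0 to 2 when single ovaries were left out. It was 0 with the replicate block, where Pecam1 had a log2 fold change of -0.434 and an adjusted p of 0.242, and over all genes 3 were called with the block and 891 without it. Replicate numbers do not pair these samples. The block fits also kept only replicate numbers found in both groups. This left out IVF replicates 5 and 6 at E18.5 and IVF replicate 5 at 12 weeks. At those ages the fits with and without the block therefore differ in ovaries as well as in the term. At 39 weeks 24 genes were called with the block and 45 without it, and at 12 weeks 0 and 1. DESeq2 called 1 gene at 39 weeks and 1 in the mean of 3 ages, where leaving out single ovaries gave 0 to 1. Signs turned for differences near 0. With the block, Kdr (0.0259) and Angpt2 (0.123) at E18.5 and Emcn at 12 weeks (0.028) turned positive. Leaving out single libraries gave ranges of -0.148 to 0.144 for Kdr, -0.014 to 0.346 for Vegfa and -0.241 to 0.166 for Angpt2 at E18.5, of -0.121 to 0.0938 for Emcn and -0.2 to 0.0241 for Flt1 at 12 weeks, and of -0.0484 to 0.416 for Angpt1 at 39 weeks. The ranges were -0.955 to 0.375 for Flt1 and -1.86 to 0.174 for Tek in PGCs, -0.155 to 0.0992 for Flt1 in oocytes and -0.0614 to 0.0141 for Cdh5 in the mean of 3 ages, which was 0.0324 without 12-week IVF replicate 4 and 39-week IVF replicate 1 together, a choice made after seeing the data. The cause was not tested.

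Over all genes, calls ranged from 313 to 1973 at E18.5, 1 to 5 at 12 weeks and 0 to 123 at 39 weeks when single ovaries were left out, and DESeq2 called 1913, 619 and 1210. Without the expression filter edgeR called 9 genes at 12 weeks, 28 at 39 weeks, 19 in oocytes and 104 in cumulus cells, where the block gave 24 and the fit without the term for library name 0. DESeq2 called 46 genes in oocytes and 24 in cumulus cells, and single sets or libraries left out gave 1 to 8 and 1 to 5. In the joint model DESeq2 called 299 genes between 12 weeks and E18.5, 2411 between 39 weeks and E18.5, 1531 between 39 and 12 weeks and 626 in the mean, against 62, 1568, 534 and 195 in edgeR, whose ranges without single ovaries were 0 to 96, 856 to 1864, 80 to 1111 and 39 to 980. RLE scaling gave 29 in the first of these, no filter 16 there and 89 in the mean, and leaving out both doubted ovaries 242 between 39 and 12 weeks and 666 in the mean. With the block the blood vessel, pericyte and erythroid lists had 0 calls at E18.5, and DESeq2 called 5 erythroid genes there.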
